A study of Mus musculus with 30 samples.

Results

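The genes described here encode the nuclear subunits of respiratory complexes II, III, IV and V in the mouse line 3T3-L1. They were chosen by name: symbols starting with Uqcr or Atp5, the Cox4 to Cox8 genes with a letter after the digit, and Sdha, Sdhb, Sdhc and Sdhd, without the 6 pseudogenes that share these names. This gave 46 of the 53350 named genes: 4 of complex II, 8 of complex III, 17 of complex IV, 15 of complex V, and 2 counted apart, Cox7a2l, a factor that joins complexes into supercomplexes, and Atp5s, a coupling factor that is not a subunit of the enzyme. The rule uses names and no level or test. It leaves out subunits with other names, such as Cyc1 of complex III and Ndufa4 of complex IV. Counts, shares and rankings per complex cover the genes of the rule only.

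Complex II, succinate dehydrogenase, passes electrons from succinate to ubiquinone, complex III passes them on to cytochrome c, and complex IV, cytochrome c oxidase, passes them to oxygen. Complexes III and IV pump protons across the inner mitochondrial membrane, and complex V, the ATP synthase, makes ATP as the protons flow back. Several complex IV subunits exist in a form found in most tissues and a form known from heart, skeletal muscle and brown fat, and mitochondria multiply when fibroblasts turn into fat cells.

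The study sequenced RNA of 30 cultures. 3T3-L1 is a line of mouse embryo fibroblasts that can be driven to form fat cells. All groups had been kept in a differentiation medium with fetal bovine serum, insulin and 3-isobutyl-1-methylxanthine, a phosphodiesterase inhibitor. Controls got no further agent, and treated cultures got quizalofop-p-ethyl (QpE), a herbicide, at 50 µM. There were 6 groups of 5 cultures: control and QpE under the labels 6 h, 24 h and 12 days. The medium schedule in the protocol spans fewer days than the 12 of the label, which is used here as given. The labels number the culture replicates 1 to 5 and say nothing more of their origin, so p-values measure the spread between these cultures, which may in part be technical.

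Values are FPKM, fragment numbers set relative to transcript length and to the library, summed over the transcripts of a gene. Totals ran from 413502 to 500489 FPKM per library, and read depth is not used here. The line's label was checked with 6 fat cell markers (Adipoq, Plin1, Fabp4, Cfd, Lipe, Cidec): their summed level was 89.9 to 201 FPKM in the controls at 6 h and 862 to 5382 FPKM in the controls at 12 days. At 12 days replicates 3 and 4 stood apart from replicates 1, 2 and 5 in both arms. Their fat cell marker sums were 1032 and 862 FPKM in controls, against 4126 to 5382 FPKM in the other three, and 3114 and 3164 FPKM with QpE, against 6875 to 7396 FPKM. The fibroblast marker sum (Dlk1, Pdgfra, Thy1, Col1a1, Dcn) was lower with QpE at 12 days, at 271 to 1414 FPKM against 2881 to 3469 FPKM, and replicate 5 with QpE held the 271. In bulk RNA a change in the number of cells of a type and a change in RNA per cell cannot be told apart.

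The RNA of these subunits took up a larger share of the library at 12 days than before, and a larger one with QpE than in controls at 12 days. Together the 46 genes held 1.15% ± 0.0615 of a library's FPKM in controls at 6 h (mean ± SD, n = 5), 1.25% ± 0.0609 in controls at 24 h and 2.10% ± 0.257 in controls at 12 days. With QpE they held 1.13% ± 0.0672 at 6 h, 1.37% ± 0.135 at 24 h and 2.74% ± 0.241 at 12 days. At 12 days every QpE library (2.45% to 2.96%) lay above every control library (1.81% to 2.38%), and at 6 h and 24 h the arms overlapped. In both arms replicates 3 and 4 held the lowest shares at 12 days, and these were also the libraries with the lowest fat cell marker sums. The part of the fat cell marker level in the subunit share was not tested.

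Each of the 4 complexes held a larger share at 12 days than at any earlier time in every library. At 12 days the arms did not overlap for complexes III, IV and V, and for complex II QpE replicate 3 (0.130%) lay just below control replicates 1 and 2. Complex V took the largest share, 0.547%, 0.947% and 1.22% of FPKM in controls at 6 h, controls at 12 days and QpE at 12 days. Complex IV held 0.377%, 0.701% and 0.924% in the same order, complex III 0.146%, 0.302% and 0.402%, and complex II 0.0549%, 0.117% and 0.146%. Within a complex the level per subunit was uneven. Atp5b, the catalytic beta subunit of ATP synthase, was the most abundant subunit of complex V in all 6 groups, rising from a mean of 428 FPKM in controls at 6 h to 1082 FPKM at 12 days. Cox4i1, a regulatory subunit at the surface of complex IV, led complex IV with 299 and 612 FPKM, and Uqcrh, the hinge protein that contacts cytochrome c, led complex III with 156 and 246 FPKM. The lowest complex V subunit was Atp5g1 (42.4 FPKM in controls at 6 h), and the lowest of complex III was Uqcrq (33.7 FPKM).

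**Figure D1:**
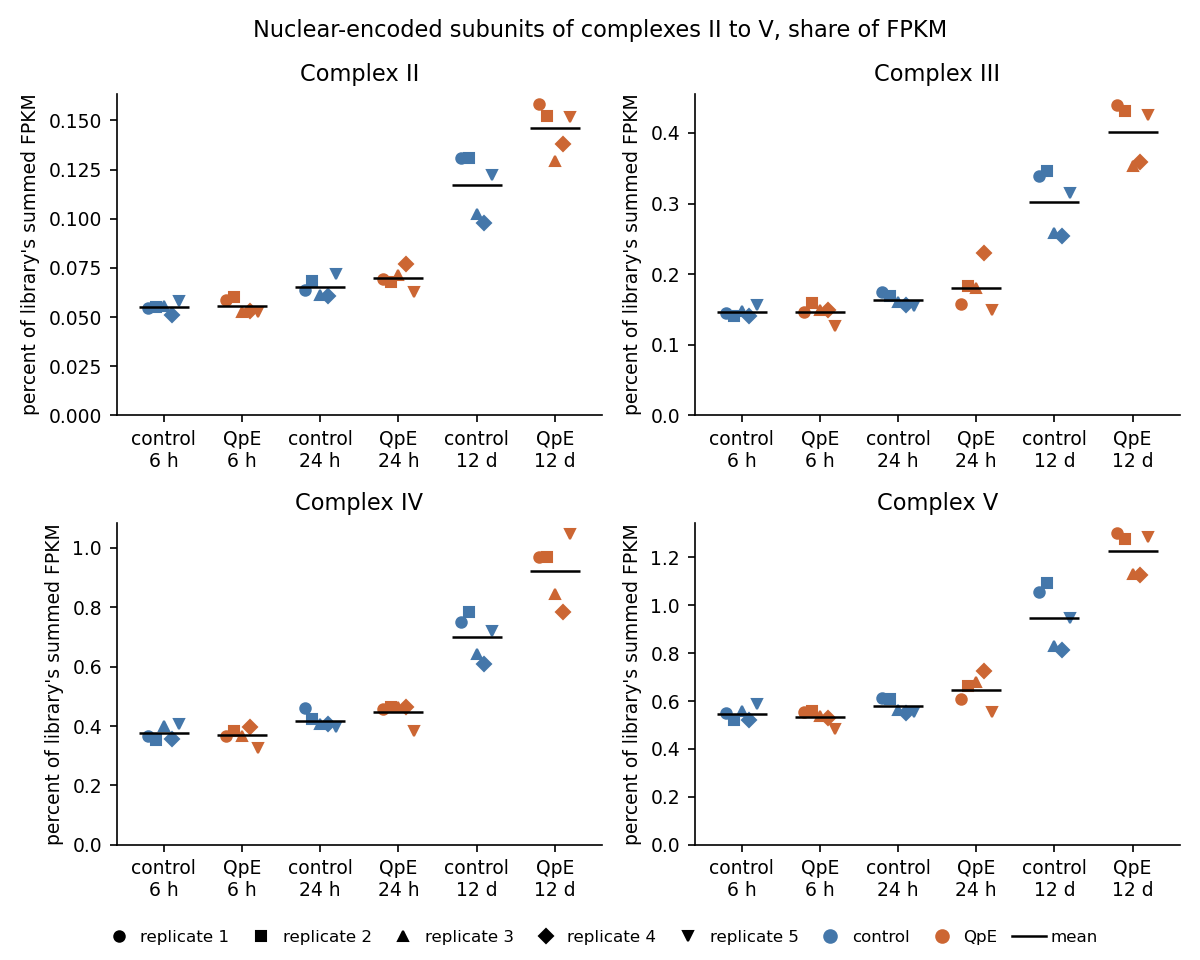
Share of each library's summed FPKM (percent, y axis, from 0) held by the nuclear subunits of complexes II, III, IV and V in the 6 groups (x axis). Each point is a library, its shape gives the replicate number and the bar is the mean. In each complex the 12 day libraries lie above the earlier ones, and in both arms at 12 days replicates 3 and 4 lie lowest.

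Of the 46 genes, 42 reached 1 FPKM in at least 5 of the 30 libraries and were tested among 14616 rows. The other 4 were isoforms known from other tissues. Cox4i2, Cox6b2 and Cox7b2 stayed at or below 0.427 FPKM in every library, and Cox8c was listed at 0 in all of them. Cox6b2 and Cox8c are known from testis, and of 4 male germ cell markers (Prm1, Tnp1, Ddx4, Sycp3), which summed to at most 2.88 FPKM, 1 passed the filter and Tnp1 was listed at 0 in all groups. Differences below are on the log2(FPKM + 1) scale with their SE, and rose or fell is written only of genes with an adjusted p below 0.05 by limma with Benjamini-Hochberg adjustment.

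In controls, some subunits had risen by 24 h. Of the 42 tested, 13 rose and 0 fell against 6 h, where 10.5% of all rows tested were higher and 12% lower. Complex II had 3 of 4 (Sdha, Sdhb, Sdhd), complex III 2 of 8 (Uqcr10, Uqcrh), complex IV 3 of 13 (Cox4i1, Cox6c, Cox7a2) and complex V 5 of 15 (Atp5c1, Atp5d, Atp5f1, Atp5h, Atp5o). The median over the 42 was 0.17, against 0.0045 over all rows. Groups did not overlap for 10 of the 42, and for 7.96% of all rows in this direction. With a spread estimated from all 30 libraries the count was 5 (Sdhb, Sdhd, Uqcr10, Cox7a2 and Atp5c1; 7.32% of all rows were higher and 8.96% lower).

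Uqcr10, a small subunit of complex III, was 91.9, 84.8, 64.6, 85.5 and 98.6 FPKM in controls 1 to 5 at 6 h and 118, 114, 107, 112 and 104 FPKM at 24 h. The groups did not overlap, and the difference was 0.39 ± 0.10 (limma, adjusted p = 0.0177). Cox7a2, the form of complex IV subunit 7a found in most tissues, was 82.9, 89.0, 90.8, 86.9 and 95.7 FPKM at 6 h and 106, 106, 110, 118 and 108 FPKM at 24 h, and rose by 0.30 ± 0.05 (limma, adjusted p = 0.00281). Again every later library was higher. Atp5c1, the rotating gamma subunit of ATP synthase, was 92.1, 86.7, 85.8, 95.02 and 93.9 FPKM at 6 h and 122, 115, 114, 122 and 92.4 FPKM at 24 h, a rise of 0.31 ± 0.08 (limma, adjusted p = 0.0164), with replicate 5 at 24 h within the 6 h range. Sdhb, the iron-sulfur subunit of complex II, was 42.7, 40.5, 48.7, 38.6 and 42.1 FPKM at 6 h and 51.7, 64.2, 49.5, 50.5 and 49.5 FPKM at 24 h. All later libraries were higher, with replicate 2 apart from the rest, and Sdhb rose by 0.31 ± 0.08 (limma, adjusted p = 0.0244).

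The value of Sdhb rests on transcripts without a gene name. Unnamed assembled transcripts of its locus carried 55.1% of its FPKM, and those of Sdhd, a membrane anchor of complex II, 80.5% of its FPKM. The call of Sdhb between 6 h and 24 h was lost in 2 of 10 fits that left out 1 library. With named transcripts only, the 24 h difference of Sdhb was 0.33 (adjusted p = 0.765 by limma) and that of Sdhd 0.26 (0.0342). For Sdhb the same change of summing took the difference between controls at 12 days and 24 h from 1.13 to −0.11 (limma, adjusted p = 0.936), and left the Sdhd difference at 0.64 from 0.71. The direction of Sdhb between 24 h and 12 days therefore depends on how its transcripts are summed.

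From 24 h to 12 days in controls nearly the whole chain rose. Of the 42 tested subunits, 35 rose and 0 fell, where 13.1% of all rows tested were higher and 20.9% lower (2369 higher and 2258 lower with median-ratio scaling, against 1917 and 3057). The median was 0.70, against −0.085 over all rows, and the groups did not overlap for 31 of 42 (9.96% of all rows in this direction). Of the 42, 3 (Cox6a2, Cox7a1 and Cox8b) stayed under 1 FPKM in every library before 12 days and entered the test only through the 12 day libraries, so a rise was built into their being tested. Among the other 39, 32 rose, 29 did not overlap and the median was 0.66. The controls at 24 h serve in both of these time comparisons. Complex II had 3 of 4, complex III 8 of 8, complex IV 12 of 13 and complex V 11 of 15. The 12 of complex IV include Cox6a2, Cox7a1 and Cox8b, whose rise was built in. Of the genes counted apart Cox7a2l rose by 0.37 ± 0.09.

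Outside the tissue isoforms the largest rise was in complex III. Uqcrfs1, the Rieske iron-sulfur protein that passes electrons on from ubiquinol, was 58.9, 55.1, 44.9, 46.6 and 53.5 FPKM in controls 1 to 5 at 24 h and 170, 164, 110, 101 and 160 FPKM at 12 days. The lowest 12 day library, replicate 4, lay above the highest 24 h library, and the difference was 1.40 ± 0.16 (limma, adjusted p = 1.41e-04). The gene lies at chr13:30540308-30545362 (GRCm38, minus strand) and its transcript in the deposited table has 2 exons. The catalytic subunits rose too: Sdha, the flavoprotein that oxidises succinate, by 0.96 ± 0.12 and Atp5b by 1.24 ± 0.11. The 7 tested genes that did not pass the test were Sdhc, Cox6c, Atp5e, Atp5g2, Atp5j, Atp5k and Atp5s, with differences from −0.021 (Atp5g2) to 0.48 (Atp5k).

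QpE at 12 days went with more RNA of subunits from all 4 complexes. Of the 42 tested, 18 rose and 0 fell against the 12 day controls, where 5.06% of all rows tested were higher and 7.16% lower (740 and 1047 rows, 457 and 1325 with TPM scaling, 963 and 976 with median-ratio scaling). Every tested subunit had a difference above 0, from 0.15 (Cox7a1) to 0.69 (Uqcrq), with a median of 0.45, against −0.0016 over all rows, and 35 of 42 had an unadjusted p under 0.05 (27.8% of all rows). Complex II had 4 of 4 called (median 0.37), complex III 4 of 8 (0.55), complex IV 6 of 13 (0.45), complex V 4 of 15 (0.45), and neither Cox7a2l (0.40) nor Atp5s (0.38) passed. Whether the complexes differed from each other was not tested. The groups did not overlap for 19 of the 42, with every QpE library higher, and for 6% of all rows in this direction.

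The count depends on the fit. It was 10 with TPM scaling (3.13% of all rows higher), 9 with no filter (1.22%), 8 with named transcripts only (2.13%) and 6 with the most abundant transcript only (1.56%). Libraries with the same replicate number deviated together at 12 days, although only 3 of 5 controls matched the QpE library of their own number best. With the replicate number as a block 30 subunits were called higher, the 18 among them (8.78% of all rows were higher and 10.2% lower). The values given below with the block share this limit. With a spread from all 30 libraries 34 were called, again with the 18 among them (11.9% and 14.2% of all rows). That fit assumes 1 spread for all groups. The median SD per row was 0.281 with QpE and 0.215 in controls at 12 days, and 0.158 to 0.188 in the earlier groups. The shared spread can therefore call too many rows at 12 days. Replicates 3 and 4, a split taken from the data, gave a median difference of 0.56 and 13 calls (4.22% of all rows higher), and replicates 1, 2 and 5 a median of 0.39 and 1 call, Uqcrq (0.698%). Leaving out 1 library at a time gave 7 to 17 calls (2.26% to 4.51% of all rows higher), fewest without control replicate 4 or 5, 8 without control replicate 3, and 10 to 11 without QpE replicate 1, 2 or 3. By replicate number, 37 of 42 subunits had the higher value with QpE in every pair (17.1% of all rows did), and the median over the subunits was 0.34, 0.29, 0.60, 0.51 and 0.54 in pairs 1 to 5. The exceptions were Cox5b, Cox6a2, Cox7a1, Cox7a2l and Cox8b.

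In complex II, Sdha was 188, 190, 136, 120 and 169 FPKM in controls 1 to 5 and 252, 232, 211, 204 and 272 FPKM with QpE, a rise of 0.56 ± 0.15 (limma, adjusted p = 0.0383). All QpE libraries were above all controls. The membrane anchors Sdhc and Sdhd rose by 0.40 ± 0.11 and 0.34 ± 0.09 (limma, adjusted p = 0.0402 and 0.0312), and Sdhb by 0.30 ± 0.08 (0.0418). Named transcripts alone gave 0.32 for Sdhd (limma, adjusted p = 0.184) and 0.81 for Sdhb (0.598), so both calls were lost, while the Sdhd difference hardly moved.

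In complex III the core subunit Uqcrc2 and the ubiquinone-binding subunit Uqcrb had the largest called rises. Uqcrc2 (chr7:120635176-120659524, plus strand, 14 exons) was 159, 157, 112, 102 and 134 FPKM in controls and 217, 194, 197, 188 and 210 FPKM with QpE, a rise of 0.62 ± 0.13 (limma, adjusted p = 0.0196). Uqcrb (chr13:66900617-66905378, minus strand, 4 exons) was 146, 134, 113, 114 and 104 FPKM in controls and 168, 151, 207, 217 and 178 FPKM with QpE, a rise of 0.59 ± 0.13 (limma, adjusted p = 0.0214, and 0.0523 and 0.0526 without control replicate 4 or 5). In neither gene did the groups overlap, and the control libraries of lowest Uqcrc2 were replicates 3 and 4. Uqcr10 rose by 0.53 ± 0.10 and Uqcrh by 0.48 ± 0.13 (limma, adjusted p = 0.0155 and 0.0446). The other core subunit, Uqcrc1, and the Rieske protein Uqcrfs1 had differences of 0.44 and 0.57 that missed the threshold (limma, adjusted p = 0.196 and 0.0529, and 0.0208 and 0.0184 with the block). Uqcrq had the largest difference of all 42, 0.69 (limma, adjusted p = 0.0683, and 0.0167 with the block).

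In complex IV the small subunits Cox7c and Cox7b had the largest called rises. Cox7c (chr13:86044816-86046904, minus strand, 3 exons) was 232, 234, 233, 195 and 186 FPKM in controls and 325, 284, 357, 334 and 357 FPKM with QpE, a rise of 0.62 ± 0.11 (limma, adjusted p = 0.0132). Cox7b (chrX:106012401-106022450, plus strand) was 167, 160, 133, 121 and 133 FPKM in controls and 228, 218, 209, 202 and 218 FPKM with QpE, a rise of 0.60 ± 0.10 (limma, adjusted p = 0.0130). The lowest QpE library lay above the highest control in both genes. Cox7a2, Cox6c, Cox6b1 and Cox5a rose by 0.52, 0.48, 0.45 and 0.39, and the call of Cox6b1 was lost in 8 of 10 fits that left out 1 library. Cox4i1, the most abundant subunit of the complex, was 732, 705, 506, 483 and 634 FPKM in controls and 990, 997, 881, 655 and 1227 FPKM with QpE. Replicate 4 with QpE lay below 2 of the controls, and the difference of 0.62 ± 0.20 missed the threshold (limma, adjusted p = 0.0633, and 0.0228 with the block).

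In complex V the rises were spread over the head and the stalks. Atp5f1, the b subunit of the peripheral stalk, was 166, 160, 148, 138 and 149 FPKM in controls and 209, 197, 244, 254 and 218 FPKM with QpE, a rise of 0.56 ± 0.10 (limma, adjusted p = 0.0132), with no overlap. Atp5h, the d subunit of the same stalk, rose by 0.49 ± 0.12, Atp5a1, the alpha subunit of the catalytic head, by 0.45 ± 0.12 and Atp5c1 by 0.43 ± 0.09 (limma, adjusted p = 0.0301, 0.0391 and 0.0168). The call of Atp5c1 was lost with named transcripts only (limma, adjusted p = 0.0622), with a difference of 0.40 that hardly moved. Atp5b had a difference of 0.50 (limma, adjusted p = 0.0514, and 0.0326 with the block).

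**Figure D2:**
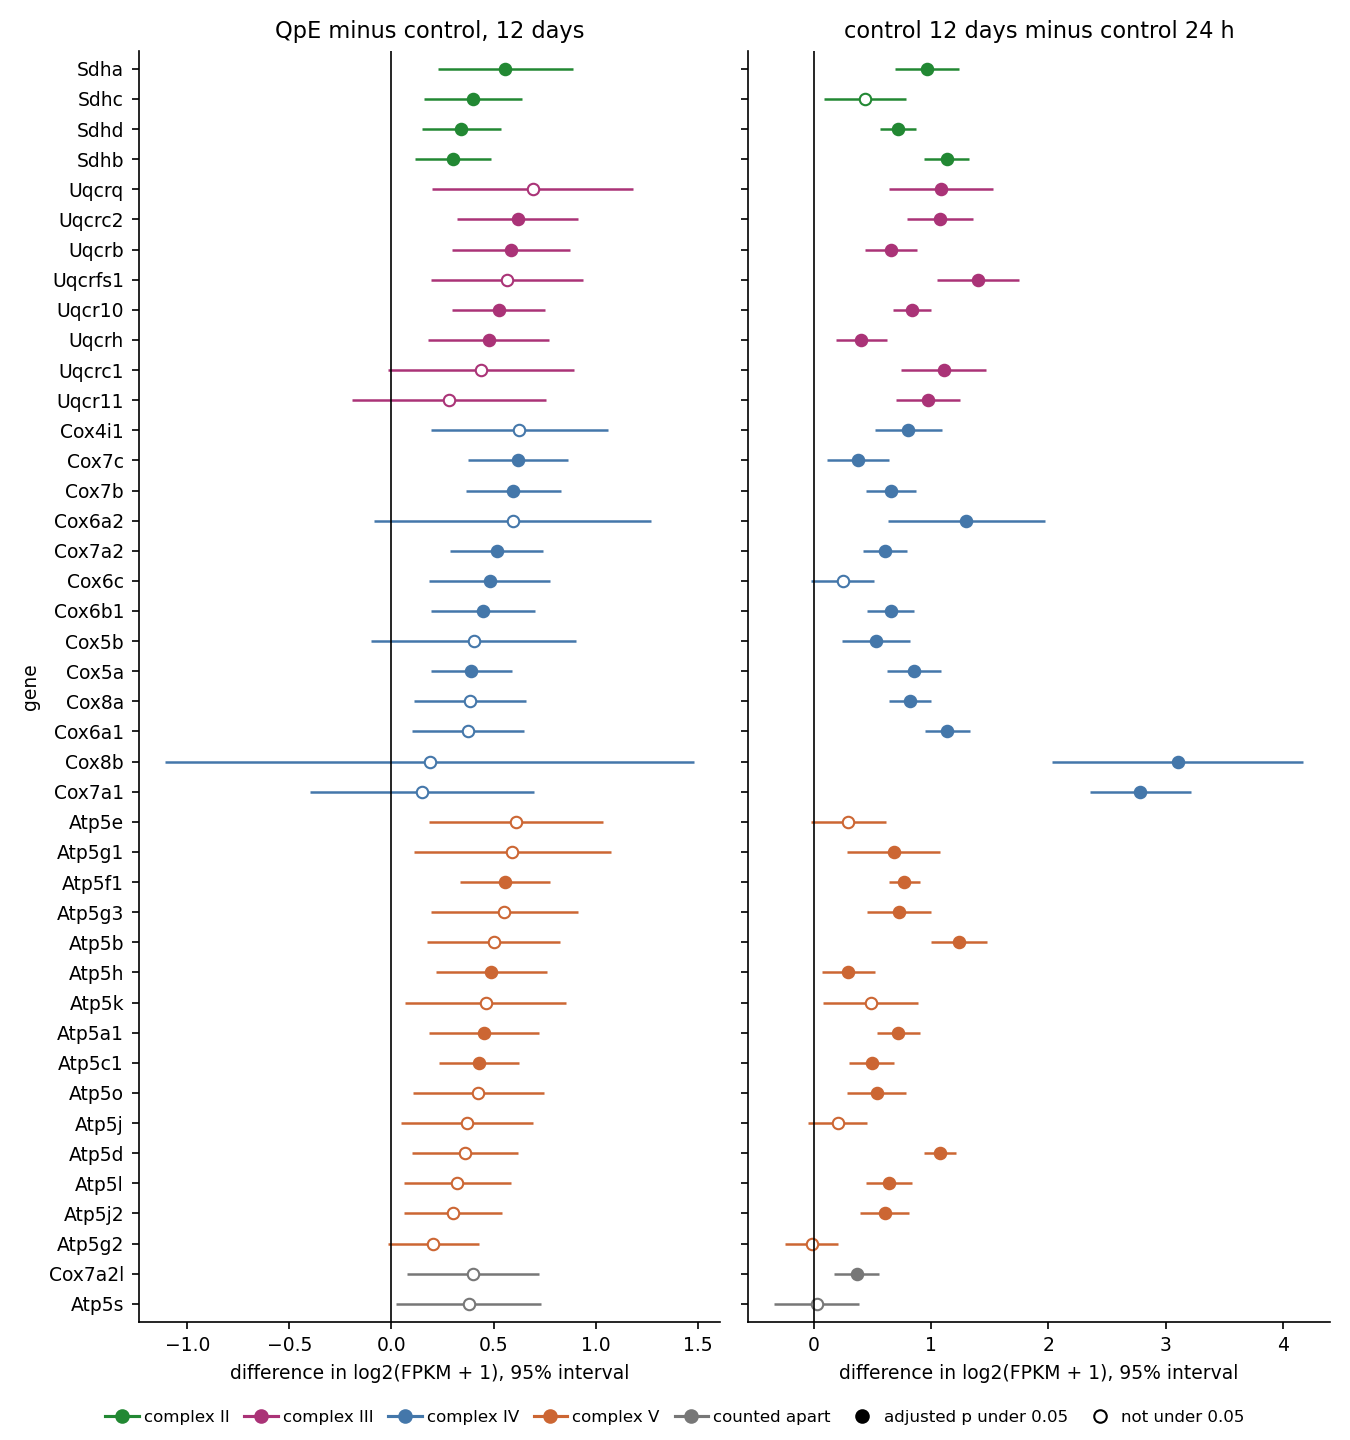
Difference in log2(FPKM + 1) of the 42 tested subunits (y axis, by complex), with QpE against control at 12 days on the left and control 12 days against control 24 h on the right. Points are limma estimates with 95% intervals, filled where the adjusted p was below 0.05, and both panels use the same 12 day controls. On the left all 42 points lie right of 0 and 18 are filled, and on the right 35 are filled, with Cox8b and Cox7a1 farthest from 0. Cox8b, Cox7a1 and Cox6a2 entered the test only through their 12 day libraries, so a rise was built in for them on the right.

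**Figure D3:**
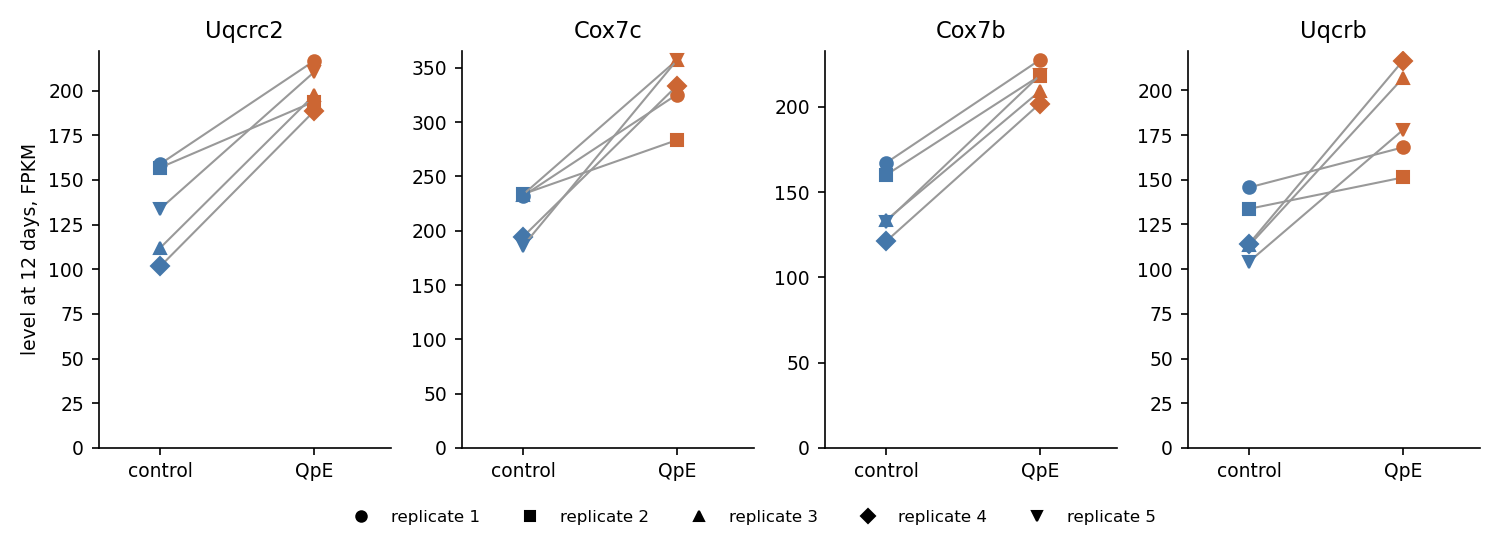
Level at 12 days (FPKM, y axis, from 0) of the 4 subunits with the largest called rises with QpE: Uqcrc2, Cox7c, Cox7b and Uqcrb. Each line joins the control and the QpE library of the same replicate number. All 5 lines rise in each gene, and Uqcrb rises least in replicates 1 and 2.

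The isoforms of complex IV known from heart, skeletal muscle and brown fat were near 0 up to 24 h and measurable at 12 days. Cox7a1 (chr7:30184144-30186078, plus strand, 4 exons), the counterpart of Cox7a2, was listed at 0 to 0.510 FPKM in controls at 6 h and 24 h and was 9.56, 8.19, 8.11, 4.69 and 10.9 FPKM in controls at 12 days. Cox8b (chr7:140898945-140900446, minus strand, 2 exons), the counterpart of Cox8a, was listed at 0 in all controls at 6 h and in 3 controls at 24 h, and was 16.8, 13.9, 3.87, 2.29 and 18.9 FPKM in controls at 12 days. Cox6a2 (chr7:128205435-128206387, minus strand, 3 exons), the counterpart of Cox6a1, was at most 0.449 FPKM in the earlier controls and 2.04, 2.40, 1.78, 0.217 and 3.40 FPKM at 12 days.

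Their differences between controls at 24 h and 12 days were 3.10 ± 0.48 for Cox8b, 2.79 ± 0.20 for Cox7a1 and 1.30 ± 0.30 for Cox6a2. These are given as a description, with no p, since the filter admitted the 3 genes through their 12 day levels. For Cox7a1 and Cox8b every 12 day library lay above every earlier control, and for Cox6a2 replicate 4 at 12 days lay below replicate 5 at 24 h. Replicates 3 and 4 had the lowest Cox8b at 12 days, and they are the libraries of low fat cell marker sum. Since values near 0 are compressed on the log2(FPKM + 1) scale, these differences understate the change in FPKM.

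The forms found in most tissues remained far more abundant. At 12 days in controls Cox7a2 was 137 to 191 FPKM, Cox8a 492 to 623 FPKM and Cox6a1 493 to 617 FPKM. As a share of their pair or trio, Cox7a1 went from 0.290% ± 0.182 in controls at 24 h to 4.65% ± 0.980 at 12 days (SD, n = 5), Cox8b from 0.0466% ± 0.0722 to 2.06% ± 1.48 and Cox6a2 from 0.0496% ± 0.0741 to 0.341% ± 0.185. These share differences are given as a description too, with no p. The filter admitted these families to the share tests through the same 12 day levels, so a rise was built in.

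With QpE at 12 days the tissue isoforms had differences above 0 that did not pass the test, and of their counterparts Cox7a2 passed and Cox8a and Cox6a1 did not. At 12 days with QpE Cox7a1 was 11.8, 13.4, 6.68, 6.04 and 9.01 FPKM, a difference of 0.15 with an interval from −0.40 to 0.70 (limma, adjusted p = 0.741), while Cox7a2 was 234, 226, 260, 225 and 251 FPKM, above all controls, and rose by 0.52 ± 0.10 (0.0157). Cox8b was 21.96, 18.3, 4.65, 6.79 and 7.25 FPKM, a difference of 0.19 from −1.11 to 1.48 (limma, adjusted p = 0.866), beside 0.39 for Cox8a (0.0675), which was 676, 722, 737, 616 and 820 FPKM with QpE. For Cox8b the difference lay below 0 when any 1 of 4 libraries was left out, and for Cox7a1 without control replicate 4. Cox6a2 was 3.10, 3.54, 4.39, 2.55 and 2.39 FPKM, a difference of 0.59 from −0.084 to 1.27 (limma, adjusted p = 0.240, and 0.0448 with all 30 libraries), beside 0.37 for Cox6a1 (0.0734). The fit over all 30 libraries takes part of its spread from the earlier ones, where Cox6a2 was near 0. No call is taken from its 0.0448. The intervals of Cox7a1, Cox8b and Cox6a2 include the size of the rise of Cox7a2, and the change of the shares with QpE did not pass either: Cox7a1 had 3.80% ± 1.37 of its pair with QpE, Cox8b 1.64% ± 1.10 and Cox6a2 0.445% ± 0.115 (exact permutation test, two-sided, adjusted p = 0.663, 0.810 and 0.683).

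The tissues in which these isoforms are known were looked for by their markers. Of 5 brown fat markers (Ucp1, Cidea, Dio2, Elovl3, Prdm16) 0 passed the filter. Ucp1, the uncoupling protein that defines brown fat, was listed at 0 in all libraries of 4 groups, QpE at 12 days among them. The 5 summed to 1.98, 1.85, 0.515, 0.516 and 2.39 FPKM in controls 1 to 5 at 12 days and to 8.10, 12.2, 0.796, 0.784 and 25.5 FPKM with QpE, higher in each pair, where Elovl3 made up most of the mean (8.58 ± 9.82 FPKM, SD, n = 5). Of 7 muscle markers (Myod1, Myog, Ckm, Acta1, Myh2, Myh6, Tnnt2) 1 passed the filter, and the 7 summed to at most 3.61 FPKM in any library. Myod1 and Myog, which define skeletal muscle, were listed at 0 in all groups.

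**Figure D4:**
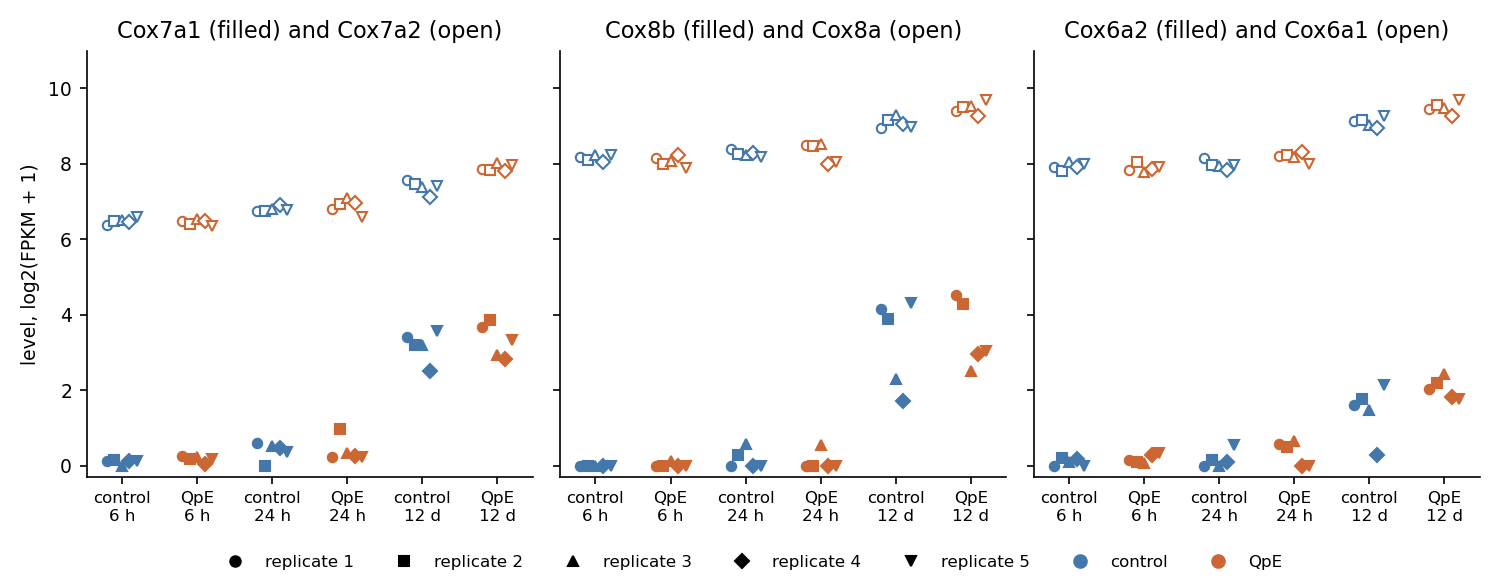
Level, as log2(FPKM + 1) (y axis), of 3 tissue isoforms of complex IV (filled) and of their counterparts found in most tissues (open) in each library of the 6 groups (x axis), with the shape giving the replicate number. The filled points leave the baseline at 12 days in both arms, where Cox8b is lowest in replicates 3 and 4 in controls, and the open points stay above them in every library.

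The sequence just before the start of each isoform pair is shown because the pairs differ in CpG content, which sets apart promoters of widely used genes from many tissue-restricted ones. The sequences are from RefSeq on GRCm38.p6, run 5′ to 3′ on the gene's strand, end at the base before the start of the main transcript in the deposited table, and have each CpG in capitals. Cox7a1 (chr7:30183921-30184143, plus strand) has 3 CpG and Cox7a2 (chr9:79759879-79760103, minus strand) has 12. Cox8b (chr7:140900447-140900696, minus strand) has 1 and Cox8a (chr19:7217617-7217866, minus strand) has 11. No promoter of Cox6a2 was matched.
Cox7a1: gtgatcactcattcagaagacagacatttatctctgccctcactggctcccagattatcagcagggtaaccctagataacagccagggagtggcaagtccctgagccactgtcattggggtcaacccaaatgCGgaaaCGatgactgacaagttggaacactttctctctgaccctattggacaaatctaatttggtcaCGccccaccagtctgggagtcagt
Cox7a2: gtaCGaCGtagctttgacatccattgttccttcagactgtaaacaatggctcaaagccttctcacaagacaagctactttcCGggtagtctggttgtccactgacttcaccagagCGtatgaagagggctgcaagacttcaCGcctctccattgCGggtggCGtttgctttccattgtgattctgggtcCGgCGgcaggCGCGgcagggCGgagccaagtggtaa
Cox8b: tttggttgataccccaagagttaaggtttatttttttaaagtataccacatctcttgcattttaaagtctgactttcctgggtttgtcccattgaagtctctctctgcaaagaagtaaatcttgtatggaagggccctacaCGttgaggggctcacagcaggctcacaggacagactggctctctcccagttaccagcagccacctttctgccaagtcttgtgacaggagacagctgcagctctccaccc
Cox8a: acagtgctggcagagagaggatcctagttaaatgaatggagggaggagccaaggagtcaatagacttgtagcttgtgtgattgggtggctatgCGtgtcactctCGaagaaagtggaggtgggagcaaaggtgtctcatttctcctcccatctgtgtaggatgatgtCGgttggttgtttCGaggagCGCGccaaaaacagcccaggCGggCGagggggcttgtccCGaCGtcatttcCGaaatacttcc

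A promoter was found for 36 of the 46 genes, 34 by symbol and 2 by synonym. In the 250 bases before the RefSeq start, the 36 held a median of 14 CpG, from 1 (Cox8b) to 35 (Atp5j), and all 32851 promoters of the table a median of 6. Cox7a1 held 4, as many as or more than 44.4% of all promoters, and Cox7a2 14. The same windows were searched on both strands for the letters of motifs known from genes of oxidative phosphorylation. GCGCATGC, the core of the nuclear respiratory factor NRF1 site, was in 5 of 36 (13.9%), against 2.56% of 27025 genes: Atp5g2, Atp5k, Atp5l, Cox6a1 and Sdhb. CCGGAAG, an ETS site of the kind bound by GABP, was in 9 of 36 (25%), against 7.83% of all genes. TCAAGGTCA, the site of the estrogen-related receptors, was in 1 (Atp5g3; 2.78% against 0.422%), and AAGATGGC, a YY1 site, in 1 (Atp5j; 2.78% against 1.83%). The DR1 repeat bound by PPAR with its partner RXR was in 0 of 36 and in 0.0407% of all genes. CCAAT was in 20 (55.6% against 37.5%) and TATAAA in 2 (5.56% against 14.3%). A match of letters is not a measured site.

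Cox6a1 is printed as an example of the NRF1 letters in this set, with the 2 overlapping matches, 1 on each strand, in capitals (chr5:115348982-115349208, GRCm38.p6, minus strand, from RefSeq).
Cox6a1: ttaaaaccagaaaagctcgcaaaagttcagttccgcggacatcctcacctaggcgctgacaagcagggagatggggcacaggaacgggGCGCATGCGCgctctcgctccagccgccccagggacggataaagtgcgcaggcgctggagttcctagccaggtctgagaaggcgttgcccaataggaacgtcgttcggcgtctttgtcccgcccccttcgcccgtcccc
Cox6a1 itself was 567, 577, 518, 493 and 617 FPKM in controls at 12 days, a rise of 1.14 ± 0.09 against 24 h (limma, adjusted p = 1.72e-05), and 695, 750, 717, 613 and 826 FPKM with QpE. Replicate 4 with QpE lay within the control range, and the QpE difference of 0.37 did not pass.

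The membrane ring of ATP synthase is built from the c subunit, whose mature protein is the same from the 3 genes Atp5g1, Atp5g2 and Atp5g3. Atp5g3 was 291 to 335 FPKM in controls at 6 h and 640, 645, 456, 442 and 518 FPKM at 12 days, while Atp5g2 was 112 to 152 FPKM at 6 h and 146, 164, 150, 126 and 131 FPKM at 12 days. Between 24 h and 12 days in controls Atp5g3 rose by 0.72 ± 0.12 and Atp5g1 by 0.68 ± 0.18 (limma, adjusted p = 0.00136 and 0.0143), and Atp5g2 had a difference of −0.021 ± 0.10 with an interval from −0.24 to 0.20 (0.897).

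As a share of the 3 genes, Atp5g2 held 28.5% ± 3.79 in controls at 24 h and 19.2% ± 2.04 at 12 days, and Atp5g3 63.1% ± 2.93 and 71.5% ± 2.69 (SD, n = 5). In both cases no library of the 2 groups overlapped. Both tests stood at 0.00794, the smallest p that 5 against 5 allows (exact permutation test, two-sided). After adjustment over the 30 share tests, those of the tissue isoforms included, both stood at 0.0595 by this test, so neither passed. With QpE at 12 days the Atp5g2 share was 13.6%, 15.2%, 17.6%, 16.8% and 15.3%, against 17.1%, 18.2%, 22.1%, 20.6% and 18.2% in controls 1 to 5, lower in each pair. The difference of −3.52 percentage points had p = 0.0159 (exact permutation test, two-sided, adjusted p = 0.0794). With QpE Atp5g1 was 120, 101, 114, 67.5 and 133 FPKM, against 69.7, 93.3, 72.0, 44.6 and 74.1 FPKM in controls, and Atp5g3 was 879, 851, 664, 665 and 887 FPKM. Replicate 4 was the lowest Atp5g1 library in each arm. The QpE differences were 0.59 for Atp5g1, 0.55 for Atp5g3 and 0.20 for Atp5g2 (limma, adjusted p = 0.104, 0.0516 and 0.219, and 0.0227, 0.0205 and 0.143 with the block). Atp5g2 shares its locus with the microRNA gene Mir688. The Atp5g2 sum holds only transcripts named Atp5g2, and how reads common to both genes were assigned is not given in the sources used here.

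At 6 h, of the 42 subunits 0 passed by limma in either direction (0.00684% of all rows were higher and 0% lower), 0 had an unadjusted p under 0.05 (2.75% of all rows), and 10 of 42 differences were above 0, with a median of −0.027. The smallest p-values were those of Cox7b (−0.15 from −0.31 to 0.0090), Atp5g1 (0.23 from −0.042 to 0.51) and Uqcr11 (−0.13 from −0.33 to 0.073). Cox7b was 86.5, 78.1, 90.5, 80.2 and 87.4 FPKM in controls and 76.2, 73.2, 79.6, 85.8 and 66.5 FPKM with QpE, and the groups overlapped. Atp5g1 was 40.2, 46.5, 49.7, 40.6 and 35.0 FPKM in controls and 63.2, 45.6, 44.5, 42.8 and 55.2 FPKM with QpE, and Uqcr11, a small subunit of complex III, 102, 85.3, 105, 95.8 and 96.7 FPKM against 98.9, 79.9, 94.2, 96.9 and 74.9 FPKM. Both overlapped as well. Replicate 5 with QpE had the lowest share of all 46 genes at 6 h (1.01% of FPKM), and without it 25 of 42 differences were above 0, so no direction is given for 6 h.

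At 24 h 0 of 42 passed in either direction (0% of all rows in each), by limma with its own spread, with the block and with the spread of all 30 libraries. An unadjusted p under 0.05 was found for 8 of 42, and for 8.79% of all rows. Differences were above 0 for 39 of 42, with a median of 0.15, against 0.011 over all rows. Atp5e, the epsilon subunit of ATP synthase, was 133, 176, 120, 126 and 107 FPKM in controls and 202, 230, 191, 386 and 157 FPKM with QpE, a difference of 0.76 from 0.27 to 1.26 (limma, adjusted p = 0.405). Replicate 4 with QpE was the highest, and replicate 5 lay within the control range. Sdhd was 104, 103, 97.3, 96.5 and 106 FPKM in controls and 108, 119, 127, 125 and 106 FPKM with QpE, a difference of 0.20 ± 0.064 (limma, adjusted p = 0.460), with replicates 1 and 5 close to the controls. Atp5d, the delta subunit, was 107, 101, 96.6, 96.2 and 97.3 FPKM in controls and 125, 103, 110, 127 and 111 FPKM with QpE, a difference of 0.20 ± 0.067 (limma, adjusted p = 0.466), with replicate 2 inside the control range.

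Whether the QpE difference grew from 24 h to 12 days was tested directly. The interaction was above 0 for 41 of 42 subunits, with a median of 0.30, and 0 passed (0.301% of all rows were higher and 0.705% lower; 12 of 42 and 17.3% of all rows had an unadjusted p under 0.05). With the spread of all 30 libraries 3 passed, Cox7b (0.52), Uqcrc2 (0.48) and Cox7a2 (0.42), with adjusted p = 0.0334, 0.0362 and 0.0325 by limma (1.85% of all rows were higher and 3.27% lower). These calls share the limit of the shared spread given above. With the spread of the compared groups, leaving out QpE replicate 4 at 24 h gave 1 call, Atp5f1 (54 of 14616 rows were higher).

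Other genes of the pathway were read from fixed lists. Of all rows tested, 13.1% were higher and 20.9% lower in controls from 24 h to 12 days. With QpE at 12 days 5.06% were higher and 7.16% lower. Of 7 core subunits of complex I, 7 rose in controls from 24 h to 12 days and 4 with QpE at 12 days, with medians of 0.74 and 0.53. A list of 13 genes held Cycs, Cyc1, Ndufa4, the electron-transferring flavoproteins and genes of ubiquinone synthesis. Of these, 11 and 6 rose (medians 0.79 and 0.51). Cyc1 and Ndufa4 are subunits of complexes III and IV that the name rule does not take in. Cycs, cytochrome c itself, was 114 ± 30.5 FPKM in controls and 211 ± 29.4 FPKM with QpE at 12 days (SD, n = 5), a rise of 0.92 ± 0.18 (limma, adjusted p = 0.0155). Of the assembly factors, those that rose in the same comparisons were 14 and 5 of 25 for complex IV, 2 and 1 of 6 for complex III, 2 and 1 of 4 for complex II, and 2 and 0 of 4 for the assembly and inhibition of complex V, where Atpif1, the inhibitor of ATP synthase, fell by 0.61 in controls (limma, adjusted p = 0.00258). Whether these lists differed from the subunits was not tested.

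The lists held 7 regulators of mitochondrial genes (Ppargc1a, Ppargc1b, Nrf1, Gabpa, Esrra, Tfam, Yy1). Of these, 3 rose in controls from 24 h to 12 days (13.1% of all rows) and 2 with QpE at 12 days (5.06%), with medians of 0.11 and 0.14. These were the coactivators Ppargc1a and Ppargc1b and the receptor Esrra in controls, and Ppargc1b (0.94 ± 0.17, limma, adjusted p = 0.0130) and Tfam, a factor of mitochondrial DNA (0.34 ± 0.09, adjusted p = 0.0379), with QpE. Of 6 mitochondrially encoded partners 5 were tested and 0 passed in any comparison. Their sums ran from 0 to 7680 FPKM among controls at 24 h, so genes that every cell uses were listed at 0 in some libraries, and no direction can be read from them.

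Among the markers of other cells, 6 of 6 fat cell markers rose in controls from 24 h to 12 days (13.1% of all rows were higher). With QpE at 12 days 0 of 6 passed (5.06% of all rows were higher), with all 6 differences above 0 and a median of 0.95. Of 5 fibroblast markers 3 fell in controls from 24 h to 12 days (median −0.52, 20.9% of all rows lower). With QpE at 12 days 4 fell (median −1.54, 7.16% of all rows lower). Of 4 macrophage markers (Adgre1, Ptprc, Cd68, Csf1r) 1 passed the filter. That marker rose by 0.998 in controls from 24 h to 12 days (13.1% of all rows were higher). With QpE at 12 days its difference of 0.51 did not pass. Adgre1 was listed at 0 in both arms at 12 days. The 4 summed to 0.518 to 0.899 FPKM in controls at 24 h. At 12 days they summed to 1.09 to 3.69 FPKM in controls and 2.08 to 5.35 FPKM with QpE. With QpE at 12 days the subunit and fat cell marker differences all lay above 0, and none of the fibroblast marker differences did. No link between them was tested, nor the part of the marker differences in the result.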

How the data were processed

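The authors deposited FPKM per transcript for 30 libraries in 1 table, with genome build GRCm38 and the tools HISAT, HISAT2 and StringTie named per the submitters' processing notes. The sources used here do not give versions, settings, strand use or how reads shared with pseudogenes were assigned. Of 150146 transcripts, 16259 had no gene name, and 10567 of these were joined to the only named gene of their locus. In 10 libraries 11 values just below 0 were set to 0. Transcripts were summed per gene (57390 rows).

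Rows with 1 FPKM in at least 5 libraries (14616) were tested as log2(FPKM + 1) with limma 3.58.1 (R 4.3.3, mean-variance trend), from the libraries of the groups compared, with Benjamini-Hochberg adjustment over all rows and a threshold of 0.05, two-sided. Isoform shares were compared with exact permutation tests. The limma fits without the block were checked on simulated data, drawn with no pairing of libraries. The permutation tests and the block fit were not checked in this way. Members, lists and tests were chosen with earlier results of these data known.

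Full values are given for the 4 largest called rises of a comparison, for isoform families, and, with no call, for the smallest p-values; other genes were named after their values were seen. Deviations from the group means correlated between same-numbered control and QpE libraries at 12 days (0.190, 0.188, 0.325, 0.380 and 0.157, all above 0.1), so the numbers are taken to pair them; the pairing comes from the data, since the labels state no shared batch, and 3 of 5 controls matched their own number best. Replicates 3 and 4 stood apart in both arms at 12 days, and the part of this split in the 12 day correlations was not tested. At 6 h 4 of 5 correlations were above 0.1 (lowest 0.0438) and 4 of 5 controls matched their own number best. At 24 h 1 of 5 correlations was above 0.1 (lowest 0.0380). By this bound the numbers are not taken to pair at 6 h or 24 h.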

Additional observations from a re-analysis of the deposited data

Results flagged for a closer look

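Of 204 groups of 5 libraries scanned (the named subunits, isoform shares and shares per complex), 18 held a library far from the other 4. Chance flags about 1 in 20 groups, and 7 of these values are shares computed from the FPKM values. Replicate 4 with QpE at 24 h was high for Uqcrb, at 170.4 FPKM against 72.7 to 91.5 FPKM in the others, and for Sdhb, at 77.5 FPKM against 49.0 to 57.1 FPKM. Replicate 5 with QpE at 24 h was low for complex IV, at 0.382% of FPKM. Replicate 5 with QpE at 6 h was low for all 46 genes, at 1.01% of FPKM, and for Uqcr10, at 54.6 FPKM against 89.8 to 102 FPKM. Atp5d was low in replicate 3 with QpE at 6 h (76.8 FPKM). Among controls at 24 h, Atp5c1 was low in replicate 5 (92.4 FPKM) and Sdhb high in replicate 2 (64.2 FPKM).

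The other values are of tissue isoforms near 0 before 12 days. Cox8b was 0.0900 FPKM in replicate 3 with QpE at 6 h and 0.467 FPKM in replicate 3 with QpE at 24 h (0.0332% and 0.126% of its trio), and was listed at 0 in the other 4 libraries of each group. Cox7a1 was 0.948 FPKM in replicate 2 with QpE at 24 h (0.780% of its pair) and 0 in control replicate 3 at 6 h (0%). Cox6a2 was 0.449 FPKM in control replicate 5 at 24 h (0.178% of its pair).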

How the results depend on the processing

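With QpE at 12 days 18 subunits were called higher (5.06% of all rows). This became 34 with all 30 libraries (11.9% of all rows), 30 with the replicate block (8.78%) and 36 with both (1966 of 14616 rows). The fit with both was added after seeing the data. The spread of all 30 libraries takes in the less variable earlier groups, so it can call too many rows at 12 days. The count was 9 with no filter (1.22%), 10 with TPM scaling (3.13%), 6 with the most abundant transcript only (1.56%) and 8 with named transcripts only (2.13%). Replicates 1, 2 and 5 only gave 1 (0.698%), and leaving out 1 library gave 7 to 17 (2.26% to 4.51%). For controls at 24 h against 6 h the 13 calls (10.5% of all rows) became 5 with all 30 libraries (7.32%). They became 6 with the most abundant transcript only (692 of 14263 rows) and 9 to 13 with 1 library left out (1155 to 1676 of 14616 rows). For the interaction the 0 calls (0.301% of all rows) became 3 with all 30 libraries (1.85%). Without QpE replicate 4 at 24 h they became 1, Atp5f1 (54 of 14616 rows), range 0 to 1. For controls at 12 days against 24 h the 35 calls (13.1% of all rows) ranged from 28 (most abundant transcript only, 1072 of 14263 rows) to 37 (median-ratio scaling, 2369 of 14616 rows). With 1 library left out they ranged from 33 to 36 (1568 to 1999 of 14616 rows). The 0 calls at 6 h and 24 h stayed 0 under all settings run. The sign changed for Cox8b with QpE at 12 days (−0.17 with replicates 1, 2 and 5 only, −0.20 to 0.45 with 1 library left out), Cox7a1 (−0.018 to 0.27) and, in controls at 12 days against 24 h, Atp5g2 (0.064 with median-ratio scaling, −0.071 to 0.049 with 1 library left out). Without control replicate 4 at 12 days, 5 share differences between controls had an adjusted p of 0.0476 (exact permutation test). These include the tissue isoforms, which were admitted through their 12 day levels. Each further test at the smallest possible p lowers the adjusted value of all tests there, so no call is taken from this setting. The replicate block left 9 calls for controls at 24 h against 6 h (1336 of 14616 rows higher) and 36 for controls at 12 days against 24 h (1827 of 14616). In these 2 comparisons the numbers are not taken to pair the libraries. The block left 0 calls for QpE at 6 h, QpE at 24 h and the interaction (1, 0 and 70 of 14616 rows higher). The causes were not tested. Read depth is unknown, which limits statements on genes near 0 FPKM.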
